A study of Homo sapiens with 10 samples.

Results

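The genes described here are 9 components of the interferon and double-stranded RNA response: the receptor subunits IFNAR1 and IFNAR2, the signalling factors STAT2 and IRF1, the RNA-binding enzymes EIF2AK2 and ADAR, the adaptor MAVS, the effector IFIT3 and the antigen presentation factor TAPBP. They were chosen by name, with earlier results of this series known. Their RNA 5-methylcytosine (m5C) sites were taken from deposited site lists by Entrez gene identifier. All 9 had sites in both cell lines, 14 of the 8320 sites listed for MDA-468 (5280 genes) and 16 of the 5194 listed for MCF-10A (3704 genes). Of the 5980 genes with a site in either list, 3004 had one in both. The count of members was not tested against that share, because of how the genes were chosen. A further table of the authors, with 1795 sites that differ between the lines, held 5 sites of these genes. MDA-468 (MDA-MB-468) is a human breast cancer line and MCF-10A a line of non-tumorigenic mammary epithelial cells, each a single line standing for its condition. Sites were mapped by MeRIP-seq (sequencing after immunoprecipitation of methylated RNA), in which fragments of polyadenylated RNA are pulled down with an antibody against 5-methylcytosine and compared with unselected input RNA. The series holds 2 MeRIP and 2 input libraries of MDA-468, and 2 MeRIP, 2 technical replicate MeRIP and 2 input libraries of MCF-10A. Neither line was treated with interferon, double-stranded RNA or any other agent, and 1 culture description, which names MDA-MB-468, is given for all 10 samples.

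Type I interferons bind the receptor made of IFNAR1 and IFNAR2, which activates STAT2 through kinases of the JAK family and switches on antiviral genes. Double-stranded RNA is detected inside the cell by RIG-I-like helicases, which signal through MAVS on mitochondria, and by the kinase PKR, the product of EIF2AK2, which halts translation. ADAR converts adenosine to inosine in double-stranded RNA of the cell itself and so keeps these sensors quiet. Much of that RNA is formed by Alu elements, short repeats of primate genomes, when copies in opposite orientations stand in one transcript and pair with each other.

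Every member site of MDA-468 overlapped a member site of MCF-10A, and the MCF-10A list held 3 further sites, 2 in MAVS and 1 in IFNAR1. Sharing required an overlap of 1 base or more, on the same strand, with any entry of the opposite list. By this rule 14 of 14 MDA-468 sites and 13 of 16 MCF-10A sites were shared, against 47.7% of all MDA-468 sites and 74.3% of all MCF-10A sites. With the MDA-468 list reduced to the length of the MCF-10A list, 12 of 12 and 11 of 16 member sites were shared. The shares over all sites were then 63.2% in MDA-468 and 62.4% in MCF-10A. The genes were picked with earlier results of these lists known, so this contrast with all sites is a description and was not tested. Neither list gives values per library, so no site has a value per replicate, no error can be given, and depth is unknown. A site missing from a list cannot be told apart from a transcript with too few reads, since transcript levels were not analysed here. In bulk RNA, fewer cells with a transcript and less of it per cell cannot be told apart either.

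The shared sites lay in the same stretches and were shorter in MDA-468. The 14 MDA-468 sites ran from 121 to 511 nt with a median of 240 nt, and the 16 MCF-10A sites from 121 to 989 nt with a median of 315 nt. Of 12 pairs in which 1 site of each list met, the site was shorter in MDA-468 in 11 and equal in 1, which belonged to MAVS. Over all 3539 such pairs of the lists, 80.4% were longer in MCF-10A. Of the 14 MDA-468 sites, 13 lay wholly inside an MCF-10A site, as did 83.9% of all shared MDA-468 sites. The lengths of all 14 and all 16 member sites were within 1 nt of a multiple of 30, as were 93.4% of all MDA-468 and 88.8% of all MCF-10A lengths, so edges of a site are placed in steps of about 30 nt. All member sites were single blocks without a splice junction, as were 87.8% of all MDA-468 and 91.9% of all MCF-10A sites.

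**Figure D1:**
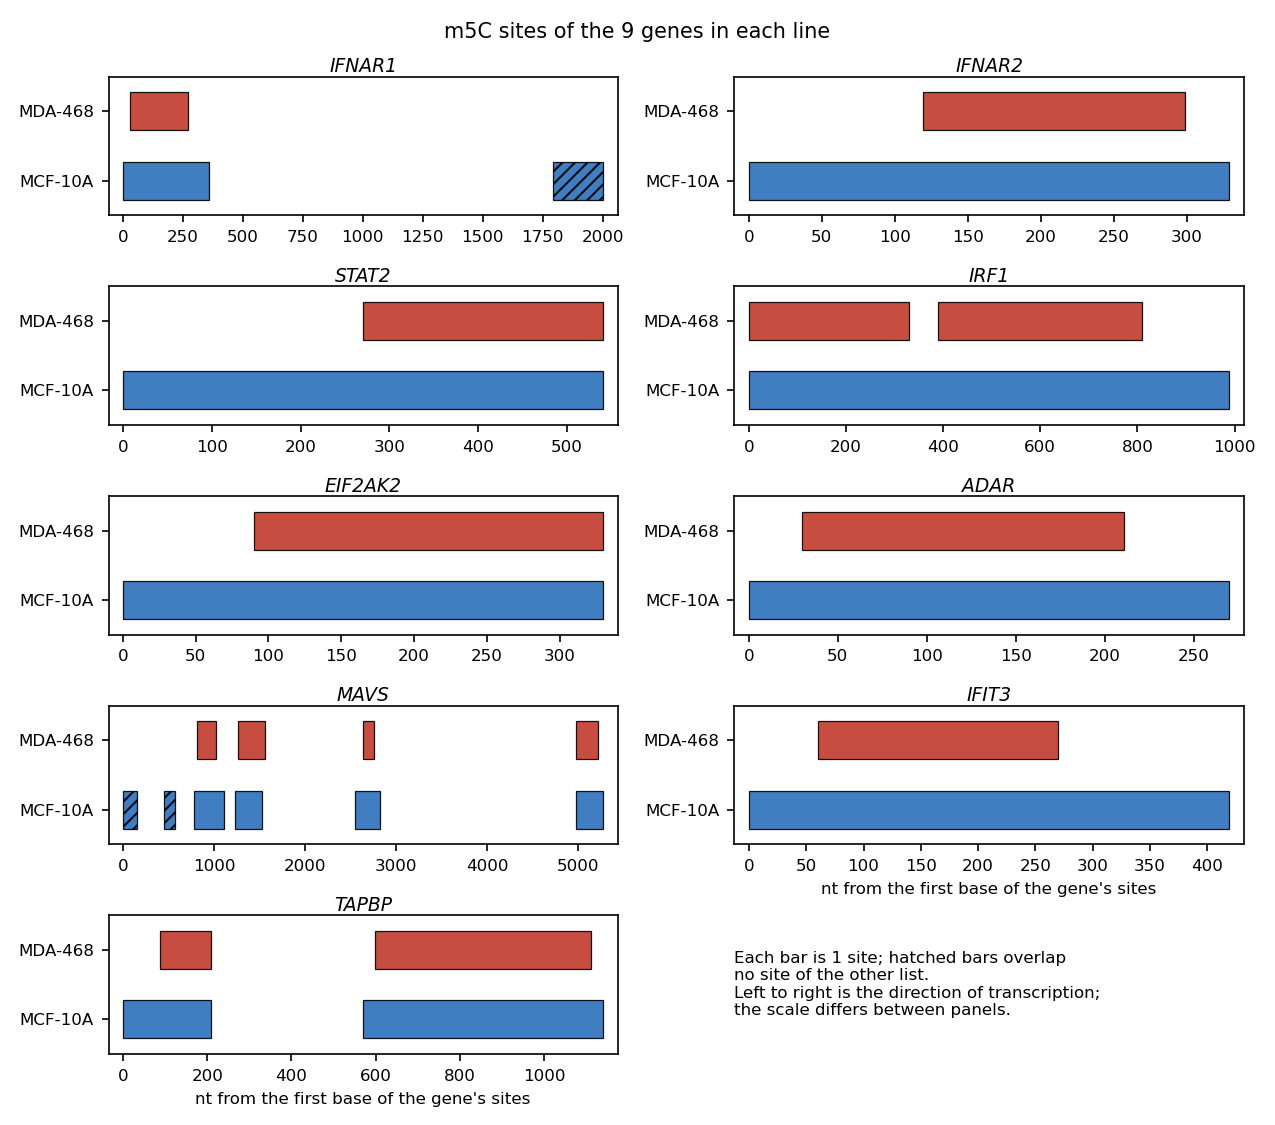
Sites of each gene, with MDA-468 above MCF-10A in every panel and distance in nt along the genome, in the direction of transcription, from the first base of the gene's sites. The 14 MDA-468 bars all stand over an MCF-10A bar, and the 3 hatched MCF-10A bars, 2 in MAVS and 1 in IFNAR1, have no partner.

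The place of the sites on the transcripts was not analysed here, because the sites are given in hg19 and the annotation used is of GRCh38. The transcripts themselves were searched for Alu sequence. The search used the commonest 14-base word of human protein-coding transcripts, CCTGTAATCCCAGC, which belongs to the Alu consensus, and its reverse complement GCTGGGATTACAGG, the next commonest. In the longest coding transcript of each gene in GENCODE 29, 8 of the 9 members held the word in at least 1 orientation, with STAT2 the exception. The word stood in 14.3% of the 19281 protein-coding genes with an Entrez identifier in GENCODE 29, in 61.5% of the 2481 with a site in both lists, in 4.13% of the 2036 with a site in MDA-468 only and in 27.6% of the 580 with a site in MCF-10A only. These shares were not adjusted for transcript length. Its median was 2967 nt over all these genes and 4439 nt with a site in both lists. With a site in MDA-468 only it was 3575 nt, in MCF-10A only 3863 nt, and for the members 4284 nt. The members thus belong to a class of genes in which the word is common, and their own count adds no test to that.

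The members held 18 matches to the word, 9 forward and 9 reverse, and 17 of them stood after the coding sequence. Matches were not grouped into Alu elements, so their number is not a number of elements. Only exact matches were searched, so Alu sequence with a changed word was missed. In IFNAR1 (1 match), IRF1 (3) and IFIT3 (1) all matches were forward, and in IFNAR2 (2) and TAPBP (3) all were reverse. EIF2AK2, with 1 forward and 2 reverse matches, and MAVS, with 2 of each, held both orientations. Both were found in 2.17% of all protein-coding genes and in 8.38% of those with a site in both lists. In ADAR the single match stood before the coding sequence and in 1 of its 12 coding transcripts only. The word was found in 1 of 6 coding transcripts of IRF1 and in 1 of 6 of TAPBP. It stood in 1 of 2 of IFNAR1, in 3 of 7 of IFNAR2 and in 2 of 5 of EIF2AK2. In MAVS and in IFIT3, 2 of 2 coding transcripts held it. In STAT2 none of the 3 coding transcripts held it, but 1 of all 12 annotated transcripts did. Which transcript each line used was not analysed here.

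On the transcript strand, the forward word holds 6 cytosines and the reverse word 2. A match to the word marks Alu sequence and says nothing of m5C there.

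**Figure D2:**
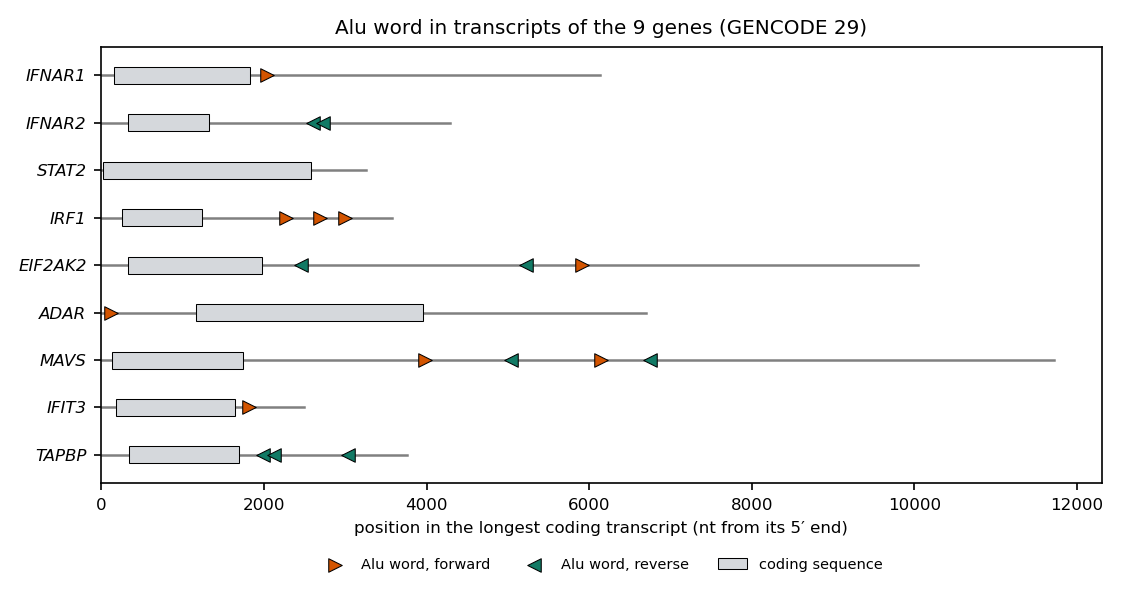
Longest coding transcript of each member in GENCODE 29, with the coding sequence as a box and each exact match to the 14-base Alu word as an arrowhead, by position in nt from the 5′ end. MAVS and EIF2AK2 hold matches in both orientations, and STAT2 holds no exact match.

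The receptor genes carried their sites on the plus strand of chromosome 21 (hg19, counted from 1, as for all sites here). IFNAR1, the subunit that carries the kinase TYK2, had 1 site in MDA-468, at 34728036 to 34728275, within the first of 2 sites in MCF-10A, at 34728006 to 34728364. The other MCF-10A site, at 34729798 to 34730007, had no partner, and the nearest MDA-468 site was that of IFNAR1 itself, 1522 nt away. Strength within a list was read from the authors' p-value of the site. The IFNAR1 site had a p of 5e-19 in MDA-468, where 29.3% of sites had a smaller one, and the MCF-10A sites had 2.5e-39 and 5e-28, where 60.0% and 71.6% of sites had a smaller one. These p-values and shares rank sites inside a list only, because the lists differ in length (8320 sites in MDA-468, 5194 in MCF-10A) and end at different limits. A share in MDA-468 and one in MCF-10A are therefore given side by side for each gene and show no difference or likeness between the lines. In MDA-468 the median share was 29.3% over the 14 member sites and also 29.3% over all shared sites. In MCF-10A it was 45.9% over the 16 member sites and 49.9% over all sites.

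IFNAR2, which binds interferon with the highest affinity of the pair, had 1 site in each line, at 34636253 to 34636432 in MDA-468 and at 34636134 to 34636462 in MCF-10A. The MDA-468 site covered 54.7% of the MCF-10A site. In both lists it stood near the middle, with 45.3% of MDA-468 sites and 47.4% of MCF-10A sites having a smaller p. Neither receptor gene had a site in the authors' deposited table.

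Of the signalling factors, STAT2, which works with IRF9 in the main transcription factor of the type I response, had 1 site in each line on chromosome 12. It ran from 56735802 to 56736072 in MDA-468 and from 56735802 to 56736342 in MCF-10A. The downstream ends, which are the lower coordinates on this minus-strand gene, were the same, and the MCF-10A site reached 270 nt further upstream. Its rank was 20.9% in MDA-468 and 44.4% in MCF-10A, given as the share of the list with a smaller p.

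IRF1, an interferon-induced transcription factor, had the strongest MDA-468 site of these genes and the longest MCF-10A site. In MDA-468 it had 2 sites on the minus strand of chromosome 5, at 131817880 to 131818299 and 131818359 to 131818688, which are 59 nt apart. In MCF-10A a single site at 131817700 to 131818688 spanned both, and the cover was 750 nt in MDA-468 and 989 nt in MCF-10A. It was the only member with more sites in MDA-468, and this came from a gap of 59 nt in a stretch that both lists covered. Only 5.49% and 12.8% of the MDA-468 sites had a smaller p than the IRF1 sites, whose p-values were 5e-39 and 7.9e-29. In the MCF-10A list 6.72% of sites had a smaller p than IRF1, at 1e-277.

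EIF2AK2, whose kinase is activated by double-stranded RNA and is itself induced by interferon, had 1 site in each line on chromosome 2, at 37333872 to 37334111 in MDA-468 and 37333872 to 37334201 in MCF-10A. The MDA-468 site covered 72.7% of the MCF-10A site, and the rank within the list was 29.3% in MDA-468 and 27.4% in MCF-10A. ADAR, the editing enzyme, also had 1 site in each line, on chromosome 1, at 154578560 to 154578740 in MDA-468 and 154578501 to 154578770 in MCF-10A. Its rank was 13.5% in MDA-468 and 17.8% in MCF-10A, so this short site, of 181 nt in MDA-468 and 270 nt in MCF-10A, belonged to the stronger ones of either list.

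MAVS carried the most sites, 4 in MDA-468 and 6 in MCF-10A, spread over 5276 nt of chromosome 20 between 3848977 and 3854252. Of the 3704 genes in the MCF-10A list, 29 (0.783%) had 6 or more sites. The 4 MDA-468 sites lay at 3849786 to 3849996, 3850236 to 3850536, 3851615 to 3851735 and 3853953 to 3854192. Each met 1 of the last 4 MCF-10A sites, at 3849756 to 3850086, 3850206 to 3850506, 3851525 to 3851795 and 3853953 to 3854252. Under the rule of 1 base, both lists thus held the same 4 stretches, and the MCF-10A list added 2 sites upstream of them. The MDA-468 site at 3851615 covered 44.6% of its MCF-10A partner. With p at or below 1e-10, the MDA-468 sites at 3851615 (p of 5.2e-08) and 3853953 (p of 2.8e-10) left the list.

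The added MAVS sites, at 3848977 to 3849127 and 3849427 to 3849547, were weak in their list. Of the MCF-10A sites, 75.1% had a smaller p than the first and 99.6% had a smaller p than the second, whose p was 5.6e-10. This is common to unshared sites: the median rank was 83.1% over all 1337 unshared MCF-10A sites and 37.4% over all shared ones. The nearest MDA-468 site stood 658 nt and 238 nt away. The strongest MAVS site was the same stretch in both lines, with a rank of 9.57% and a p of 2.5e-32 in MDA-468 and a rank of 13.9% and a p of 1e-189 in MCF-10A. Here both sites measured 301 nt and were offset by 30 nt, and this was the single MDA-468 member site that did not lie inside its partner. The weakest MDA-468 site of MAVS had a p of 5.2e-08, a value above the largest p in the whole MCF-10A list, 3e-08.

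IFIT3, an interferon-induced protein that binds its relative IFIT1 and helps it to hold foreign RNA, had 1 site in each line on chromosome 10, at 91100068 to 91100277 in MDA-468 and 91100008 to 91100426 in MCF-10A. The site measured 210 nt in MDA-468 and 419 nt in MCF-10A, and its rank was 50.5% in MDA-468 and 30.7% in MCF-10A.

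TAPBP encodes tapasin, which holds class I molecules at the peptide transporter, and had 2 sites in each line on chromosome 6. They lay at 33268191 to 33268701 and 33269091 to 33269211 in MDA-468, and at 33268161 to 33268731 and 33269091 to 33269300 in MCF-10A. TAPBP lies on the minus strand, so the stretch of lower coordinates is the downstream one. This downstream stretch was the strong one, with a rank of 18.6% in MDA-468 and 6.72% in MCF-10A, and the upstream one stood near the middle, at 55.7% in MDA-468 and 49.4% in MCF-10A. Inside the downstream stretch each list held another site without a gene identifier on the same strand, at 33268203 to 33268437 in MDA-468 and 33268174 to 33268437 in MCF-10A, which was not counted for TAPBP. No other gene had a site within 5000 nt of the member sites on either strand.

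**Figure D3:**
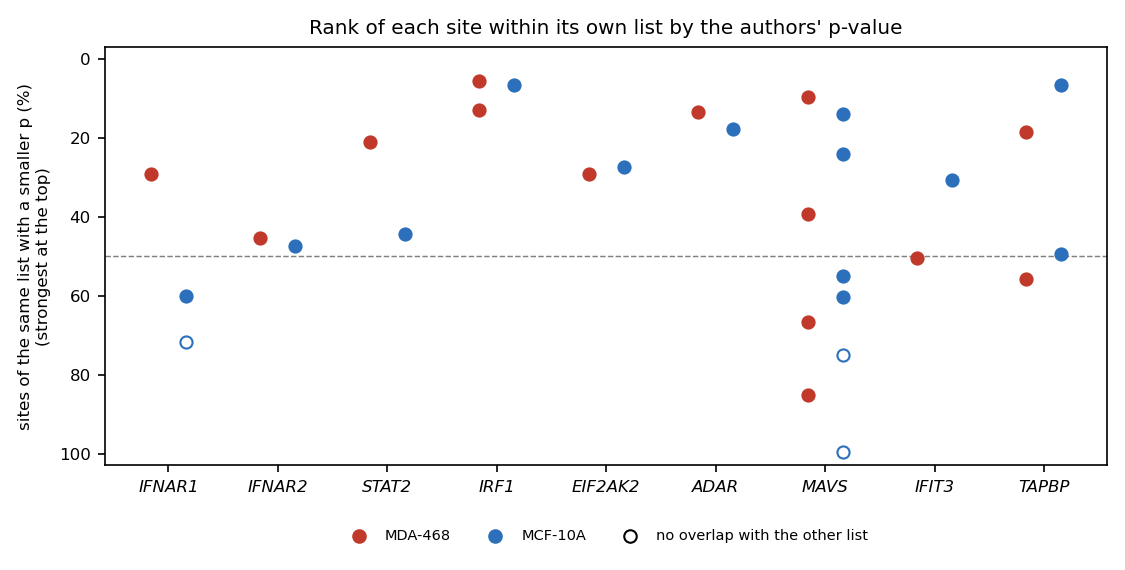
Each point is 1 site, placed by the share of sites of its own list with a smaller p of the authors, strongest at the top and MDA-468 left of MCF-10A for each gene. IRF1 and ADAR stand high in both lists, between 5.49% and 17.8%, and the open points, MCF-10A sites without a partner, lie at 71.6% or lower down. The median over all unshared MCF-10A sites is 83.1%.

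The authors also tested sites between the lines, and a positive log2 fold change was read here as higher in MDA-468. The title line of the table names MDA-468 compared with MCF-10A, while the name under which it was deposited gives the opposite order, so the direction was read from overlap with the site lists. Of the 389 positive sites, 381 overlapped the MDA-468 list and 19 the MCF-10A list. Of the 1406 negative sites, 1221 overlapped the MDA-468 list and 1334 the MCF-10A list, so the negative sites, which include all 5 member sites, hardly separate the lines. The sign of every log2 fold change given here, and each statement of higher or lower in MDA-468 from this table, rests on that reading. Of the 9 members, 5 were listed in the authors' deposited table, IRF1, EIF2AK2, ADAR, IFIT3 and TAPBP, each with 1 site that was lower in MDA-468. Among the 3004 genes with a site in both lists, the authors' deposited table listed a site lower in MDA-468 for 36.8% and a site higher for 2.50%. The count of members was not tested against that share, since the genes were picked with the table known. Under a limit of -5 on the log10 differential false discovery rate, 3 of the 5 sites remained, those of IRF1, ADAR and IFIT3. That limit kept 537 of all 1795 sites in the authors' deposited table, and the member count was not tested against this. IFNAR1, IFNAR2, STAT2 and MAVS had no site in the authors' deposited table, which lists only sites that passed its threshold, so their log2 fold changes are unknown.

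IFIT3 had the largest difference of the members in the authors' deposited table, a log2 fold change of -2.96, or 7.78-fold higher in MCF-10A, with a fold enrichment of MeRIP over input of 12.4. Among 1406 sites that the authors' deposited table gives as lower in MDA-468, 106 (7.54%) had a more negative value. Its log10 differential false discovery rate in the authors' deposited table was -12.9, and 6.40% of those 1406 sites had a lower one. IFIT3 was the single member toward the far end of the table.

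ADAR followed in the authors' deposited table with a log2 fold change of -2.20 and a fold enrichment of 23.2, at exactly the stretch of its MCF-10A site. EIF2AK2 had -1.93 and a fold enrichment of 13.8 in the authors' deposited table, at 37333842 to 37334291. EIF2AK2 stood near the median log2 fold change of the 1406 sites, which is -1.96 in the authors' deposited table. Of those sites, 29.8% were more negative than ADAR and 52.5% more negative than EIF2AK2. IRF1 had -1.65 with a fold enrichment of 28.3, the highest of the members in the authors' deposited table, at 131817670 to 131818718. TAPBP had -1.16 and 21.3 in the authors' deposited table, at 33268161 to 33268791, and 97.8% of sites lower in MDA-468 were more negative. Only the downstream one of the 2 TAPBP stretches was in the authors' deposited table. A site without an identifier there, at 33268144 to 33268437, overlapped the downstream part of it and had a log2 fold change of -1.26 in the authors' deposited table. The median of the 5 member sites in the authors' deposited table was -1.93, close to that of all sites of this direction, and their median fold enrichment was 21.3, against 23 over all of these. The fold enrichment is not given for each line.

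**Figure D4:**
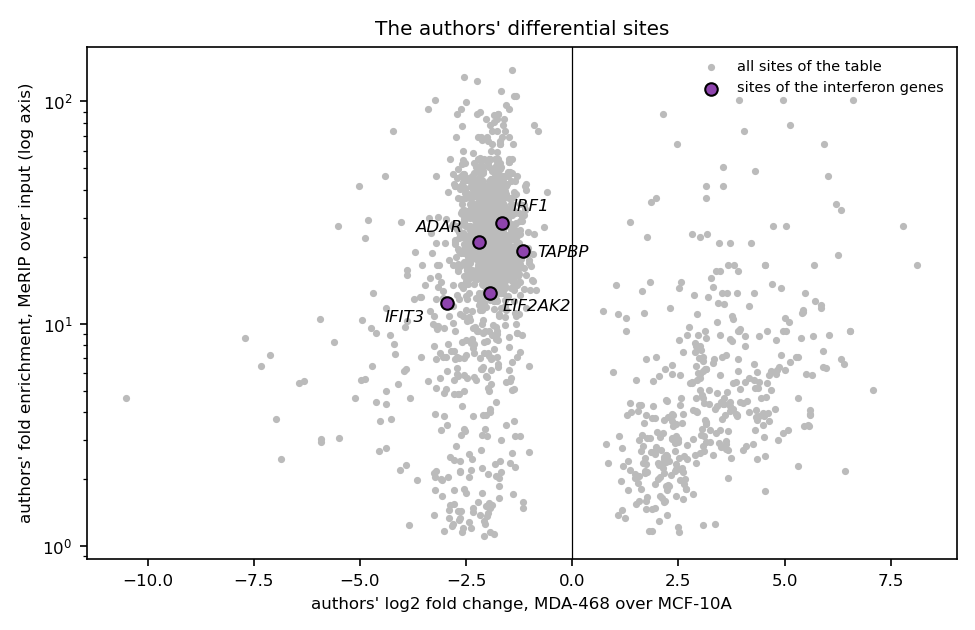
The 1795 sites of the authors' deposited table (grey) by log2 fold change, MDA-468 over MCF-10A, and fold enrichment of MeRIP over input on a log axis. The 5 sites of the interferon genes (purple) all lie left of 0, between -2.96 and -1.16, within the main cloud of sites lower in MDA-468.

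The rest of the pathway was read from 6 gene lists. Beyond the members they held 137 genes, and 30 of these (21.9%) carried sites: 16 in both lines, 10 in MDA-468 only and 4 in MCF-10A only. A site was listed for 25.3% of all 20056 protein-coding genes, and for 12.3% in both lines. Of the 137 genes, the authors' deposited table listed 9 as lower in MDA-468 and 3 as higher, which is 6.57% and 2.19%, against 5.21% and 1.47% of all protein-coding genes. The members, all with a site in both lines, were taken out of the 137 genes but stay among the 20056. Their removal lowers the shares with a site, in both lines and lower in MDA-468. No likeness to the genome or difference from it was therefore read from these shares, and none was tested.

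Of 13 interferons and receptors, 4 had a site, all in both lines. Beside the members these were IFNLR1 and IL10RB, which together form the receptor of type III interferons, with 1 site in each line. The IFNLR1 site had a log2 fold change of -2.33 in the authors' deposited table. No interferon gene of the list had a site.

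Of 24 genes of JAK-STAT and IRF signalling, 7 had a site, of which 4 had it in both lines and 3 only in MDA-468. PTPN2, a phosphatase that acts on JAK kinases, had 2 sites in MDA-468 and 1 in MCF-10A, and STAT3 had 1 in each. IRF4, a factor known from lymphocytes, had 2 sites in MDA-468 only. In the authors' deposited table STAT3 (-1.78) and PTPN2 (-1.86) were lower in MDA-468.

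Of 26 genes of double-stranded RNA sensing and editing, 7 had a site, of which 4 had it in both lines and 3 only in MDA-468. STAU1, which binds double-stranded RNA in transcripts, and ZBP1, a sensor of RNA in the Z form, had 1 site in each line. ADARB1, the related editing enzyme, and the inflammasome sensor NLRP1 had 1 site in MDA-468 only. The members EIF2AK2 and ADAR were the only genes of this list in the authors' deposited table. Of 19 adaptors and kinases, 4 had a site: MAVS, TRAF6 with 1 site in MDA-468 and 2 in MCF-10A, TBKBP1 with 2 in MDA-468 only and OPTN with 1 in MCF-10A only. None of these 4 was in the authors' deposited table.

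Of 42 interferon-stimulated effectors, 12 had a site, 8 in both lines, 1 in MDA-468 only and 3 in MCF-10A only. APOL6 and DTX3L, a ubiquitin ligase, had 2 sites in each line, ZC3HAV1, an antiviral RNA-binding protein, had 1 in MDA-468 and 2 in MCF-10A, and PARP14 and RSAD2, the antiviral enzyme viperin, had 1 in each. XAF1 had 2 sites in MCF-10A only. Most sites of the authors' deposited table, 1406 of 1795, were lower in MDA-468. It listed a lower site for 36.8% and a higher one for 2.50% of the 3004 genes with a site in both lists. The count of effectors was not tested against these shares. The authors' deposited table listed 6 effectors as lower in MDA-468 and none as higher. With IFIT3 these were XAF1 (-2.76), DTX3L (-2.52 and -1.66), SP100 (-2.10), PARP14 (-1.96) and APOL6 (-1.77) in the authors' deposited table. IFIT3 had the most negative value among them.

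Of 22 genes of class I antigen presentation, 5 had a site, of which 3 had it in both lines and 2 only in MDA-468. Beside TAPBP, the peptide trimming enzyme ERAP2 and HLA-E had 1 site in each line, and HLA-G had 2 in MDA-468 only. Reads of HLA genes can be shared between relatives, so their sites are uncertain. In the authors' deposited table HLA-E (-1.22) was lower in MDA-468, while the chaperones CALR (1.08) and CANX (2.51) were higher, with a fold enrichment of 1.37 and 1.16. CALR had no site in either site list, and CANX had 1 in MDA-468 only. The differential sites of these genes therefore did not share 1 direction, with the positive ones at low fold enrichment. HLA-E was also low, at 3.11, while TAPBP had 21.3. In the authors' deposited table the median fold enrichment was 4.32 over all positive sites and 23 over all negative ones.

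Of 12 leukocyte markers, 4 had a site, with 3 in MDA-468 only for ITGAM and 1 in each line for CD68, LYZ and PTPRC. Of 12 mammary epithelial markers, 4 had a site, EGFR (2), KRT14 (1) and TP63 (1) in MDA-468 only and CDH1 (1) in MCF-10A only. A site is no measure of expression, so the cell type of the lines could not be checked in these files.

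**Figure D5:**
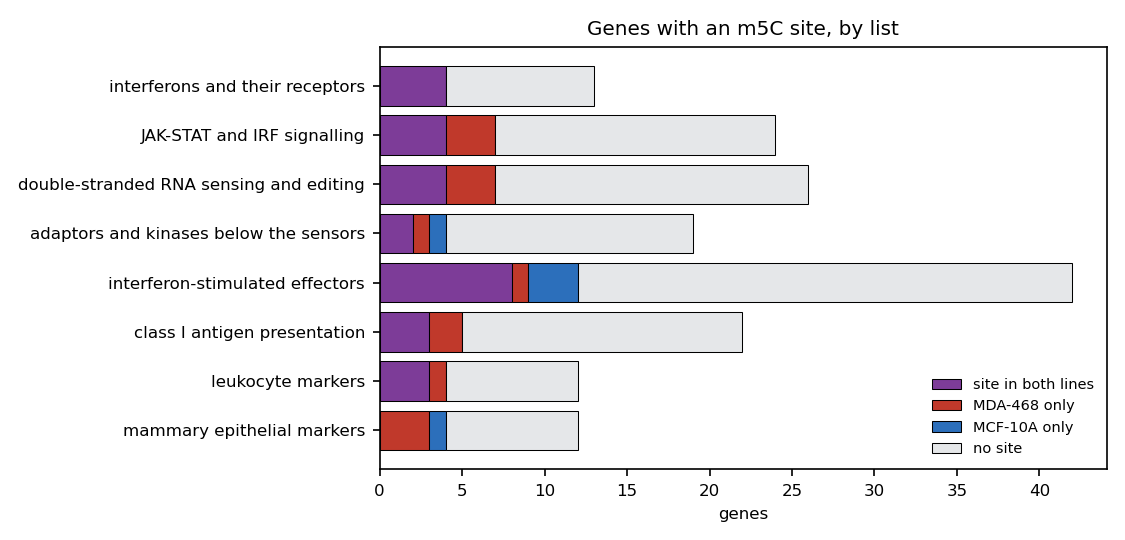
Genes of each list with a site in both lines, in MDA-468 only, in MCF-10A only or in neither, as numbers of genes. The effectors are the largest list, with 12 of 42 genes carrying a site, and no list has a site in most of its genes.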

How the data were processed

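MeRIP-seq and input libraries of MDA-468 and MCF-10A, 10 samples in 5 groups of 2, were represented by 3 deposited files. The submitters' processing notes name TopHat and the build hg19. Per the file headers, the differential table was made with Tophat2, exomePeak and UCSC known genes. Not given in the sources used here: how a site was judged consistent, how replicates were combined, and whether technical replicates were used. Each listed site carries a p-value deposited by the authors. The authors' table holds a fold enrichment (ratio) of MeRIP over input and a log2 fold change between lines. It also holds log10 p-values and log10 false discovery rates (score columns), deposited by the authors. No file holds values per library, so depth is unknown, there is no replicate error, and no test of differences was made here.

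Genes were named through a RefSeq gene table by Entrez identifier, which matched all 9 members. Overlap was computed from exon blocks and tested on simulated sites. Alu words were counted in GENCODE 29, in the longest coding transcript with an Entrez identifier, as the commonest 14-base word with at least 6 different dinucleotides. Alternatives were limits on p, list length, overlap rules and stricter limits on the differential table. The members and the gene lists were chosen with earlier results of these data known. Of each pathway list, up to 6 genes with the most sites are named, and the genes in the authors' table, apart from 1 gene that is not reported here. Python 3.11.15, pandas 2.3.3, numpy 2.4.6 and matplotlib 3.10.9 were used.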

Additional observations from a re-analysis of the deposited data

How the results depend on the processing

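Counts of member sites kept within 1.5 times under every alternative to the site lists. With p at or below 1e-10 the lists held 12 MDA-468 and 15 MCF-10A member sites, and with the MDA-468 list reduced to the length of the other they held 12 and 16. All 9 genes still had a site in each list in both cases. The sites that left the MDA-468 list were those of MAVS at 3851615 and 3853953. Under a reciprocal overlap of 50% of both sites, 11 MDA-468 and 11 MCF-10A sites were shared, in place of 14 and 13. The share of all sites under that rule is not given here, so these 2 counts stand without a background. A limit of -5 on the log10 differential false discovery rate left 3 of the 5 differential sites, those of ADAR, IRF1 and IFIT3, since the limit keeps 537 of 1795 rows of the authors' deposited table. A limit of 1.5 on the absolute log2 fold change, which keeps 1592 of the 1795 rows, left 4, without TAPBP. No site carried several gene identifiers, so that alternative gave no value. No paired analysis was possible because the files hold no value per library, and no replicate could be left out. Unknown depth limits every statement about a missing site.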
